A study of Homo sapiens with 6 samples.

Results

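Mitotic cyclins, CDC25 phosphatases and regulators of the anaphase-promoting complex (APC/C) were examined as 10 genes, chosen by name from the 58735 genes in the deposited tables. These were the cyclins CCNA2, CCNB1 and CCNB2, the phosphatases CDC25A, CDC25B and CDC25C, and CDC20, UBE2C, FBXO5 and PTTG1, which act on or through the APC/C. All 10 were found under a single identifier, and all 10 passed the filter on low counts, which kept 14736 genes. RNA sequencing was done on MDA-MB-231, a human triple-negative breast cancer (TNBC) cell line labelled wild type, with 3 samples per group. The vehicle group received the vehicle, and the SCH group received Salvia chinensis Benth (salvia chinensia benth in the labels), an aqueous extract of the herb, at 100 mg/l, each for 24 h. The series describes the samples of a group as biological repeats. One cell line, 1 dose and 1 time were sequenced, so the values describe MDA-MB-231 at 24 h.

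Genes received 20291379, 18714240 and 18334857 counts in the vehicle samples and 16836369, 17979434 and 18414924 in the SCH samples. Mitochondrial transcripts held 3.40% to 3.55% of the counts in the vehicle samples and 3.0% to 3.53% in the SCH samples. The 82 ribosomal protein genes held 5.52% to 5.79% of the counts after vehicle and 4.23% to 4.42% after SCH. This share moved with the group, and its part in the results was not tested.

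The labelled cell type was compared with marker genes. Of 8 markers of a mesenchymal-like breast line, 7 were well covered, with AXL (293 FPKM, a count scaled by gene length and library, in the vehicle group) and VIM (263 FPKM) among the highest, while SPARC had 1.33 counts per sample on average. Of these 7, AXL (log2 fold change -0.84), VIM (-0.56) and PLAU (-0.38) were lowered by SCH and 4 did not pass (42.9% lowered, beside 29.4% of all tested genes, of which 58.7% changed), and the 8 markers summed to 4537, 4655 and 4570 normalized CPM (counts put on one library size through TMM factors) after vehicle and 3426, 3447 and 3385 CPM after SCH. PLAU and VIM share 31.1% and 24.4% of their exonic bases with genes on the opposite strand. The receptor genes ESR1 and PGR, whose products are absent in TNBC, had 3.17 and 0.167 counts per sample on average, and ERBB2 mRNA was present at 6.67 FPKM in the vehicle group. Of 9 luminal markers, 6 passed the filter, and KRT8 and KRT18 were the most abundant. Of these 6, 4 were lowered and 2 raised. That is 100% changed and 66.7% lowered, beside 58.7% changed, 29.4% lowered and 29.3% raised among all tested genes. Basal markers summed to 0.615, 0.836 and 0.619 CPM after vehicle and 1.72, 1.13 and 1.79 CPM after SCH, with KRT17, the most abundant, raised (log2 fold change 1.29, 15 counts per sample on average) and KRT5 at 0 counts. Blood and endothelial markers summed to 2.97, 3.90 and 3.37 CPM after vehicle and 1.15, 1.72 and 1.84 CPM after SCH. HBB had 0 counts. PTPRC, the blood cell marker CD45, had 1.99 CPM after vehicle and 0.290 CPM after SCH and was lowered (log2 fold change -2.75). PECAM1, the other marker of this list that passed the filter, had 1.10 and 1.21 CPM and did not pass the test (log2 fold change 0.16). The part of these markers in the results was not tested.

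Entry into mitosis is driven by the kinase CDK1 bound to a B-type cyclin, and cyclin A acts with CDK2 in S phase and with CDK1 in G2. WEE1 and PKMYT1 hold CDK1 inactive by phosphorylation, and the CDC25 phosphatases remove those phosphates. The APC/C, a ubiquitin ligase, then marks cyclins and securin for destruction, with CDC20 or FZR1 as the coactivator that picks substrates. Transcripts of many of these genes rise in G2 and mitosis and are low in resting cells.

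Stretches of 30 bases before the RefSeq start are shown here because they hold sequence elements known from cell cycle promoters. The CHR was searched as TTTGAA or TTCGAA, the CCAAT box as CCAAT and the E2F element as TTTNNCGC, on both strands, in RefSeq windows on GRCh38.p14 from 250 bases before to 50 bases after a start. Windows were found for 9 members, all but UBE2C. The stretches of CCNB1 and CCNB2 and part of that of CCNA2 lie inside the deposited gene span, which begins upstream of the RefSeq start. Capitals mark whole elements, which may read on the reverse strand (ATTGG for CCAAT), and in PTTG1 a CCAAT box on each strand overlaps the other.
CDC20, chr1:43358909-43358938, plus strand, a CHR and a CCAAT box: gttggatTTTGAAggagCCAATaggcgctc
CCNB2, chr15:59105105-59105134, plus strand, a CHR: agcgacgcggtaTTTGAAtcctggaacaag
CCNB1, chr5:69167083-69167112, plus strand, a CCAAT box: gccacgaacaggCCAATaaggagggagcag
CCNA2, chr4:121823922-121823951, minus strand, a CCAAT box: gcgagcgctttcATTGGtccatttcaatag
PTTG1, chr5:160421793-160421822, plus strand, 2 overlapping CCAAT boxes: gggcggaagagCCAATTGGgccgcgagttg
CDC25A, chr3:48188450-48188479, minus strand, a CCAAT box and an E2F element: actgATTGGtggattccgTTTGGCGCcaac

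In the window nearest to the deposited gene start, CCAAT was found in 6 of 9 members, against 34.6% of all 35116 windows. The CHR, in the forms searched, was found in 2 of 9 (CDC20 and CCNB2), against 16.4% of all windows, and the E2F element in 1 of 9 (CDC25A), against 6.89%. Other forms of these elements were not searched, so a window without a match may still hold such an element. CDC25C, FBXO5 and CDC25B had none of these letters in the nearest window, and each has a further RefSeq start whose window holds a CHR and a CCAAT box. These matches describe sequence only.

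SCH treatment lowered 9 of the 10 genes (90%) in edgeR's quasi-likelihood test at an adjusted p under 0.05, and none was raised. DESeq2, and edgeR with scaling by library size only, each lowered 7, without CDC25C and FBXO5. Among all tested genes, 58.7% changed, 29.4% were lowered and 29.3% were raised. The median log2 fold change of the 10 genes was -0.53, and that of all tested genes was -0.003. CCNB1 and CDC20 fell furthest, to 34.0% and 35.4% of the vehicle level, CCNB2, UBE2C and CCNA2 fell to between 56.0% and 60.9%, and CDC25B, PTTG1, CDC25C and FBXO5 to between 79.1% and 87.7%. In those 9 genes every SCH sample lay below every vehicle sample, as it did in 31.3% of the tested genes, and 62.4% of the tested genes had groups that did not overlap in either direction. CDC25A stood at 95.6% of the vehicle level and did not pass the test. In bulk RNA, fewer cells in the phases that express these genes and less of their RNA per cell cannot be told apart.

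**Figure D1:**
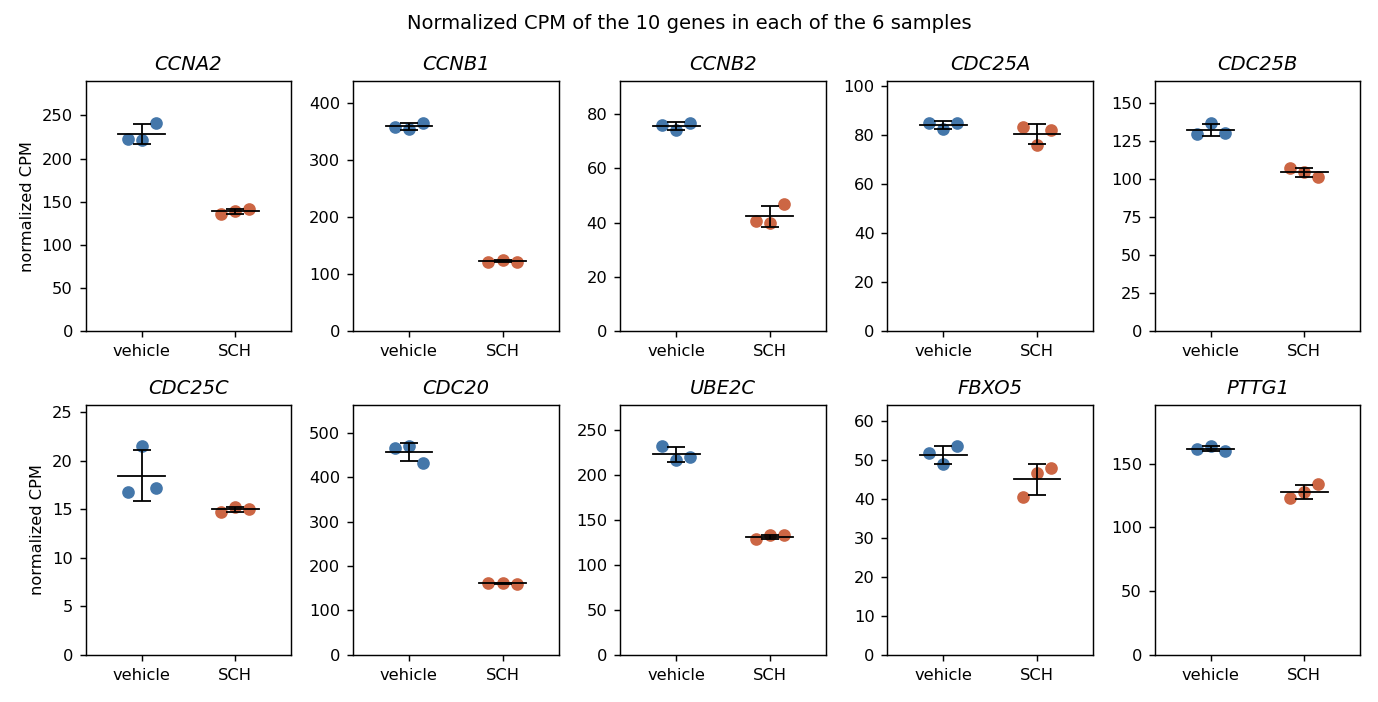
Normalized CPM (vertical axes, from 0) of each of the 10 genes in the 3 vehicle and 3 SCH samples; points are samples, and the bar and whiskers are the mean and SD. The groups do not overlap in 9 of the 10 panels, and overlap for CDC25A, where the SCH samples lie between 75.95 and 83.53 and the vehicle samples between 82.55 and 85.19.

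The mitotic cyclins were all lowered. CCNB1 (ENSG00000134057, chr5:69167010-69178245, GRCh38, plus strand), the main cyclin of CDK1 at mitotic entry, had 358.5, 353.9 and 365.4 normalized CPM in the vehicle samples and 121.3, 124.2 and 121.5 in the SCH samples. All SCH samples lay at about the same level, far below all vehicle samples. This gave a log2 fold change of -1.55 ± 0.048 (SE, with an adjusted p of 1.22e-17 in edgeR), and 1.86% of the tested genes fell further. CCNB2 (ENSG00000157456, chr15:59105078-59125045, plus strand), a B-type cyclin found largely at the Golgi, had 75.82, 73.97 and 76.75 CPM after vehicle and 40.42, 39.67 and 46.80 after SCH. The third SCH sample was the highest of its group and still below every vehicle sample. The log2 fold change of CCNB2 was -0.84 ± 0.066 (SE, with an adjusted p of 1.71e-10 in edgeR).

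CCNA2 (ENSG00000145386, chr4:121816444-121823933, minus strand), the A-type cyclin of dividing somatic cells, had 222.4, 221.3 and 241.5 CPM after vehicle and 135.8, 139.6 and 141.8 after SCH. The groups were well separated, and the log2 fold change was -0.72 ± 0.051 (SE, with an adjusted p of 2.93e-11 in edgeR). Of its exonic bases, 9.08% are shared with EXOSC9 on the opposite strand, and the strand setting of the counting is not given in the sources used here, so reads from those bases cannot be told apart. The same holds for 8.78% of CDC25C (with FAM53C) and 4.10% of FBXO5 (with AL080276.2), while the other 7 genes share no exonic base.

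Because the cyclins fell by unequal amounts, their shares of the summed cyclin FPKM shifted. The sum was 238, 236 and 248 FPKM after vehicle and 108, 109 and 111 FPKM after SCH. CCNB1 held 56.4% ± 0.634 (SD, n = 3) of it after vehicle and 42.5% ± 0.984 (SD, n = 3) after SCH. CCNA2 went from 32.8% ± 0.768 to 44.1% ± 0.165 (SD, n = 3 each) and so became the most abundant of these cyclins per length, and CCNB2 from 10.8% ± 0.146 to 13.4% ± 1.02 (SD, n = 3 each). Here and below, the length is that of all annotated exonic bases of a gene, whichever transcripts were expressed. Ranks and shares between genes depend on that length. On the log2 scale, the CCNA2/CCNB1 ratio of CPM was -0.69, -0.68 and -0.60 in the vehicle samples and 0.16, 0.17 and 0.22 in the SCH samples, a difference of 0.84. The CCNB1/CCNB2 ratio differed by -0.71, also without overlap. For CCNA2/CCNB2 the difference was 0.12 and the groups overlapped (exact two-sided permutation test, p = 0.2, adjusted p = 0.24). That difference was 0.08 without SCH replicate 2 and 0.19 without SCH replicate 3.

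Ratios within a sample do not depend on the scaling between samples. With 3 samples against 3, the exact permutation test cannot go below p = 0.1, which is an adjusted p of 0.15 over the 12 ratios examined, so none of them could pass the threshold. Those called not overlapping here reached that smallest p.

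**Figure D2:**
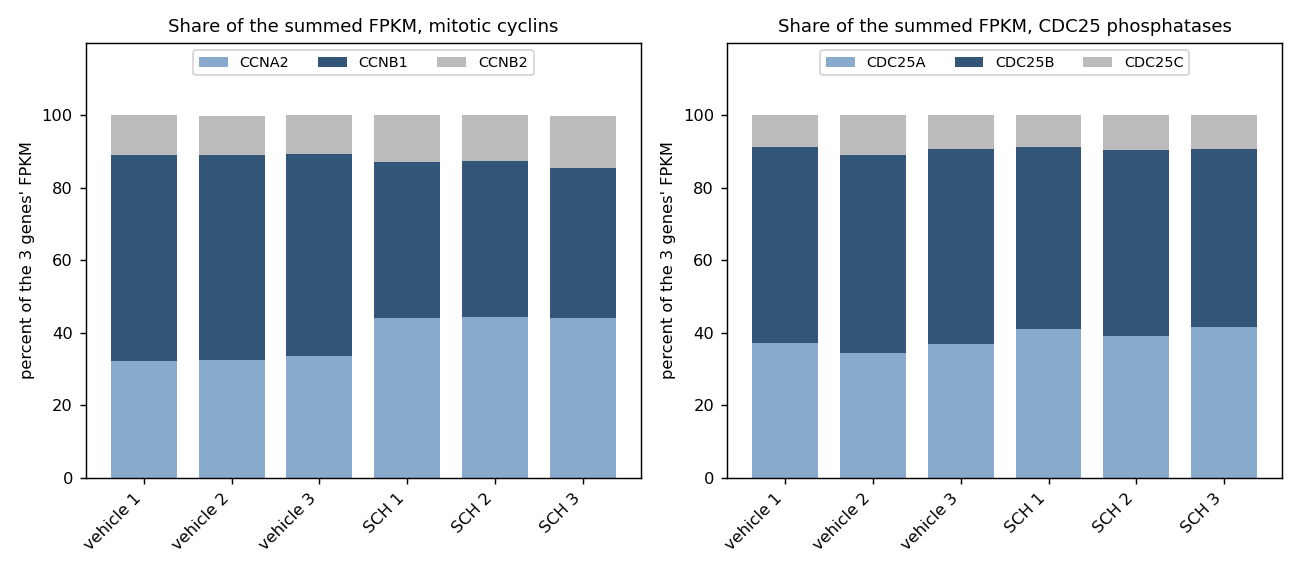
Share of the summed FPKM (vertical axis, percent) held by each of the 3 mitotic cyclins (left) and the 3 CDC25 genes (right) in each sample. CCNB1 takes 55.7% to 56.8% of the cyclin sum after vehicle and 41.3% to 43.1% after SCH, and CDC25C takes 8.86% to 11.0% of the CDC25 sum in all samples.

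The log2 fold changes of the CDC25 phosphatases ran from -0.34 to -0.06, and those of the mitotic cyclins from -1.55 to -0.72. CDC25B (ENSG00000101224, chr20:3786772-3806121, plus strand), known as a starter of CDK1 activation in G2, had 129.7, 137.3 and 130.4 CPM after vehicle and 107.6, 105.0 and 101.6 after SCH. Every SCH sample was below every vehicle sample. The log2 fold change was -0.34 ± 0.052 (SE, with an adjusted p of 5.66e-06 in edgeR), and 24.2% of the tested genes fell further.

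CDC25C (ENSG00000158402, chr5:138285265-138338355, minus strand), which amplifies CDK1 activation at mitotic entry, had 16.71, 21.45 and 17.21 CPM after vehicle and 14.68, 15.19 and 15.04 after SCH. With 256 to 385 counts per sample it was the least covered of the 10 genes. The groups did not overlap, but vehicle replicate 2 stood above the other vehicle samples. Its log2 fold change was -0.30 ± 0.099 (SE, with an adjusted p of 0.0121 in edgeR). Without vehicle replicate 2 it was -0.18 (adjusted p = 0.144 from edgeR's test), and by DESeq2 the adjusted p was 0.0607.

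CDC25A (ENSG00000164045, chr3:48157146-48188402, minus strand), which acts at the G1/S transition as well as in G2, had 85.00, 82.55 and 85.19 CPM after vehicle and 83.53, 75.95 and 82.23 after SCH. The groups overlapped. The log2 fold change was -0.06 ± 0.056 (SE, with an adjusted p of 0.336 in edgeR), with an approximate 95% interval, 1.96 standard errors to each side, from -0.17 to 0.05, and it was 0.04 when only library size was used for scaling. Its test does not show that its level was the same in both groups.

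Per length, CDC25B was the most abundant CDC25 gene in both groups, with 54.1% ± 0.377 (SD, n = 3) of the summed CDC25 FPKM after vehicle and 50.2% ± 1.19 (SD, n = 3) after SCH. CDC25A went from 36.1% ± 1.49 to 40.5% ± 1.35 (SD, n = 3 each). The log2 ratio of CDC25A to CDC25B was -0.61, -0.73 and -0.61 after vehicle and -0.37, -0.47 and -0.31 after SCH, a difference of 0.27 without overlap. Those of CDC25A to CDC25C (0.23, p = 0.2) and CDC25C to CDC25B (0.04, p = 0.7, exact two-sided permutation tests) overlapped between the groups, and the first was 0.10 without vehicle replicate 2.

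Among the APC/C regulators, CDC20 and UBE2C fell most. CDC20 (ENSG00000117399, chr1:43358955-43363203, plus strand), the coactivator that starts anaphase and the target of the spindle checkpoint, had 466.0, 469.1 and 432.3 CPM after vehicle and 162.2, 160.7 and 160.5 after SCH. The SCH samples were nearly identical to each other. In edgeR's quasi-likelihood test the log2 fold change was -1.50 ± 0.049 (SE, with an adjusted p of 3.79e-17), and 2.04% of the tested genes fell further. CCNB1 and CDC20 were the 2 members lowered by at least 1 on the log2 scale, a limit passed by 4.88% of all tested genes.

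UBE2C (ENSG00000175063, chr20:45812576-45816957, plus strand), the E2 enzyme that places the first ubiquitins on APC/C substrates, had 231.5, 216.0 and 220.2 CPM after vehicle and 128.4, 132.7 and 132.6 after SCH. The groups were far apart compared with their spread. The log2 fold change was -0.76 ± 0.049 (SE, with an adjusted p of 6.12e-12 in edgeR). PTTG1 (ENSG00000164611, chr5:160421822-160428744, plus strand), securin, the inhibitor of separase that the APC/C destroys at anaphase, had 161.8, 163.5 and 160.3 CPM after vehicle and 122.9, 127.5 and 133.8 after SCH. All SCH samples were lower, and they were spread more widely than the vehicle samples. PTTG1 had a log2 fold change of -0.34 ± 0.050 (SE, with an adjusted p of 4.16e-06 in edgeR).

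FBXO5 (ENSG00000112029, chr6:152970519-152983579, minus strand), also called EMI1, which inhibits the APC/C in S phase and G2, had 51.63, 48.85 and 53.42 CPM after vehicle and 40.53, 46.64 and 47.85 after SCH. The groups touched closely without overlap, and SCH replicate 1 was the lowest. The log2 fold change was -0.19 ± 0.069 (SE, with an adjusted p of 0.0239 in edgeR). The call was lost without SCH replicate 1 (-0.11, adjusted p = 0.18 from edgeR's test), without vehicle replicate 1 (-0.18, 0.0688) and without vehicle replicate 3 (-0.16, 0.0662), and DESeq2 gave an adjusted p of 0.0813.

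**Figure D3:**
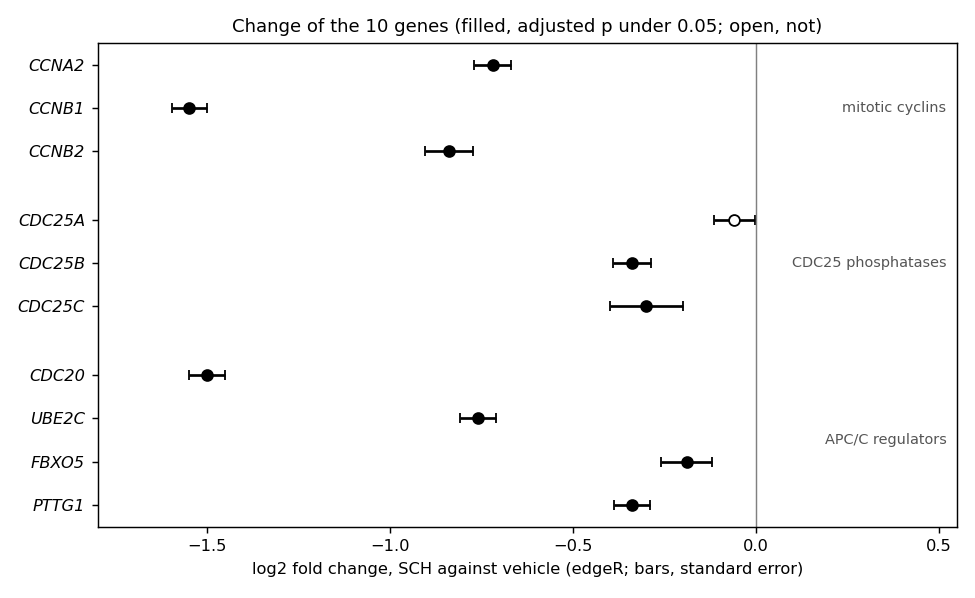
Log2 fold change of SCH against vehicle (horizontal axis) for the 10 genes, grouped by role; points are edgeR estimates, bars are standard errors, and the open point is the gene that did not pass the test. The values run from -1.55 for CCNB1 and -1.50 for CDC20 to -0.06 for CDC25A, which is 0.04 when scaled by library size only.

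Near-identical copies found under a single identifier had few counts, while CCNB1P1 and UBE2CP5 were not found in this way and have no value. PTTG2 and PTTG3P had 1.17 and 0.167 counts per sample on average, CDC20P1 had 0.667, and UBE2CP1 and UBE2CP2 had 1.83 and 2.83. No fold change was computed for them.

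The order of the 10 genes by level differed between the groups. After vehicle the mean FPKM was 216 for CDC20, 167 for UBE2C and 136 for CCNB1, followed by CCNA2 (78.9), PTTG1 (77.7), CDC25B (29.7), CCNB2 (26.1), CDC25A (19.8), FBXO5 (12.9) and CDC25C (5.34). After SCH, UBE2C was first with 99.1 FPKM and CDC20 second with 76.8, followed by PTTG1 (61.8), CCNA2 (48.2), CCNB1 (46.4), CDC25B (23.6), CDC25A (19.0), CCNB2 (14.7), FBXO5 (11.4) and CDC25C (4.35). CCNA2 and PTTG1 after vehicle were the neighbours whose samples overlapped. CCNB1 thus moved from the third place to the fifth, and CDC25A passed CCNB2. These places depend on the annotated exonic lengths that FPKM uses, which need not be those of the transcripts expressed.

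CDK1, the kinase partner of CCNB1, did not pass the test. It had 163.5, 156.1 and 180.9 CPM after vehicle and 172.3, 172.8 and 184.8 after SCH, with overlapping groups. Its log2 fold change was 0.08 ± 0.056 (SE, with an adjusted p of 0.21 in edgeR), and it passed the threshold as raised with scaling by library size only (0.19) and without vehicle replicate 3 (0.15). Without vehicle replicate 2 it was 0.04. Per length, CCNB1 mRNA stood at 136 FPKM against 41.0 for CDK1 after vehicle, and at 46.4 against 43.6 after SCH. How these genes stand against each other depends on the annotated exonic lengths used. The log2 CCNB1/CDK1 ratio of CPM was 1.13, 1.18 and 1.01 after vehicle and -0.51, -0.48 and -0.61 after SCH, a difference of -1.64 without overlap. CCNA2/CDK2 differed by -0.68, also without overlap, and 16.8% of the exonic bases of CDK2 are shared with genes on the opposite strand.

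Of 20 genes of CDK1 activation outside the 10, 11 were lowered and 3 raised, and their median log2 fold change was -0.13 (-0.03 when scaled by library size only). In all, 70.0% of them changed and 55% were lowered, against 58.7% and 29.4% of all tested genes. The list held CDK1 partners, the opposing kinases WEE1 and PKMYT1, and genes of the mitotic entry loop. A lowered gene of this list is therefore not always an activator of CDK1. PLK1 and AURKA, kinases that promote mitotic entry, were both far lower after SCH. PLK1 had 161.6, 166.4 and 164.5 CPM after vehicle and 43.29, 45.57 and 40.38 after SCH. AURKA had 258.8, 261.9 and 259.7 CPM after vehicle and 79.06, 83.52 and 83.55 after SCH. Both were lowered in edgeR's test, by log2 fold changes of -1.93 (standard error 0.057, adjusted p = 8.47e-18) and -1.66 (standard error 0.050, adjusted p = 1.02e-17). BORA, the AURKA cofactor in PLK1 activation, was lowered at a log2 fold change of -0.81, CKS2, a small CDK subunit, at -0.63, and CCNF, the F-box cyclin, at -0.58. CKS1B was lowered at -0.12, a call that 8 of 15 alternative fits did not keep. Of their exonic bases, BORA shares 37.0% with DIS3, PLK1 12.5% and CCNF 11.8% with genes on the opposite strand, whose reads cannot be told apart here.

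Of the kinases that oppose CDC25, WEE1 was lowered and PKMYT1 did not pass the test. WEE1 had 57.93, 57.43 and 71.58 CPM after vehicle and 39.33, 39.45 and 40.54 after SCH. Its log2 fold change was -0.65 ± 0.075 (SE, with an adjusted p of 1.13e-07 in edgeR), and that of PKMYT1 was -0.03 (adjusted p = 0.683), with either sign among the alternatives and 31.6% of its exonic bases shared with genes on the opposite strand. The CDC25C/WEE1 ratio differed by 0.35 with overlapping groups (exact two-sided permutation test, p = 0.3), and by 0.20 without vehicle replicate 3 and 0.52 without vehicle replicate 2. The germ-line cyclins were scarce. CCNA1 had 1.81 ± 0.219 CPM after vehicle and 5.11 ± 0.190 after SCH (SD, n = 3 each) and was raised (log2 fold change 1.49, adjusted p = 2.91e-07 from edgeR's test), while CCNB3, with 23.8 counts per sample on average, was lowered (-1.90, adjusted p = 4.20e-05 from the same test). By limma on log2(FPKM + 1) the values were 0.83 for CCNA1 and -0.31 for CCNB3.

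Of 15 genes that act on CDC25 proteins, 3 were lowered and 4 raised, with a median of 0.01 (0.11 when scaled by library size only). That is 46.7% changed and 20% lowered, beside 58.7% and 29.4% of all tested genes, and with library size only 11 of the 15 changed, beside 59.8% of all tested genes. YWHAE, a 14-3-3 protein, was lowered at -0.36, and SFN, another 14-3-3 protein, and the damage kinase ATM were raised by 0.28 and 0.26. CHEK1, whose kinase phosphorylates CDC25A and CDC25C, had a log2 fold change of 0.04 (adjusted p = 0.551 from edgeR's test), and with library size only it passed as raised (0.15, adjusted p = 0.044). With a replicate left out, CHEK1 lay between 0.01 and 0.10.

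**Figure D4:**
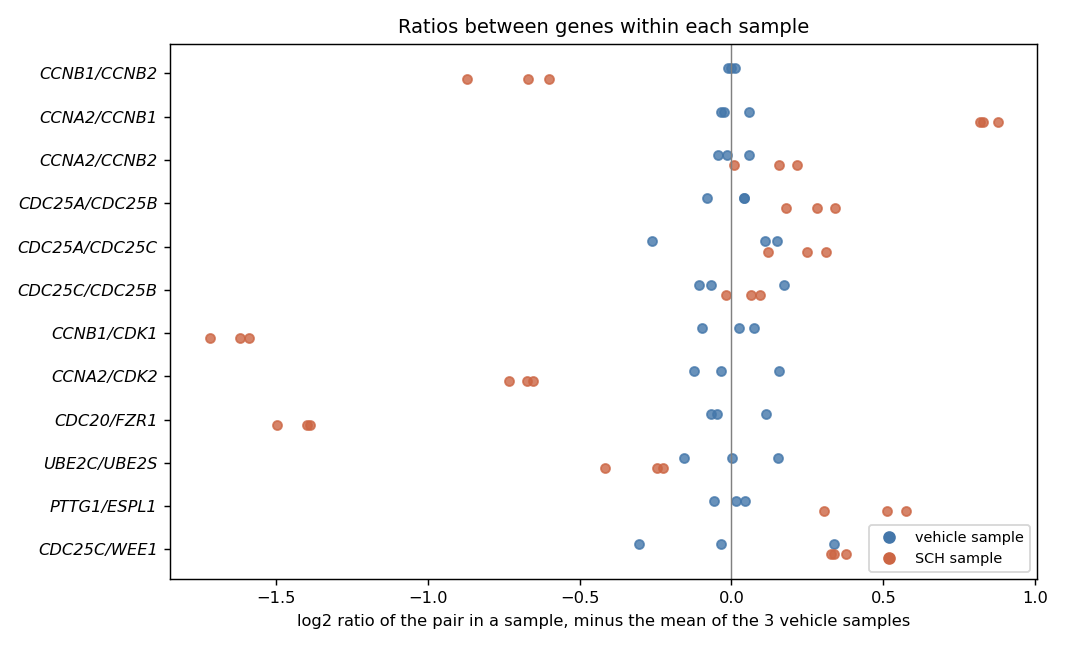
Log2 ratio of normalized CPM between 2 genes in each sample, less the mean of the 3 vehicle samples (horizontal axis), for 12 pairs; each point is a sample. CCNB1/CDK1 (difference -1.64) and CDC20/FZR1 (-1.43) lie far below the vehicle samples and CCNA2/CCNB1 (0.84) far above, while CCNA2/CCNB2, CDC25A/CDC25C, CDC25C/CDC25B and CDC25C/WEE1 overlap.

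Of 14 APC/C subunits, 5 were lowered, 3 were raised and 6 did not pass, so that 57.1% changed, near the 58.7% of all tested genes. Their median log2 fold change was -0.10 (0.00 when scaled by library size only and -0.02 without SCH replicate 1). ANAPC15 (-0.82) and ANAPC1 (-0.63) were lowered furthest and ANAPC13 was raised by 0.36. ANAPC15 and ANAPC13 share 27.1% and 13.0% of their exonic bases with genes on the opposite strand. Summed over the 14 subunits, the level was 1012, 1014 and 1026 CPM after vehicle and 957.0, 984.5 and 969.8 after SCH, whereas the 10 genes summed to 1799, 1788 and 1783 CPM after vehicle and 957.2, 967.2 and 983.7 after SCH.

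FZR1, the coactivator that replaces CDC20 at the end of mitosis, had 97.56, 99.10 and 80.57 CPM after vehicle and 92.54, 85.67 and 85.07 after SCH, with overlapping groups. Its log2 fold change was -0.08 ± 0.067 (SE, with an adjusted p of 0.35 in edgeR), 0.03 with library size only, and -0.16 (adjusted p = 0.0106) without vehicle replicate 3, where it passed the threshold. The log2 CDC20/FZR1 ratio of CPM was 2.26, 2.24 and 2.42 after vehicle and 0.81, 0.91 and 0.92 after SCH, a difference of -1.43.

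Of 12 other coactivators, E2 enzymes and checkpoint genes, FZR1 among them, 7 were lowered and 3 raised (83.3% changed and 58.3% lowered, against 58.7% and 29.4% of all tested genes), with a median of -0.38. UBE2S, the E2 enzyme that extends the chains begun by UBE2C, had 482.4, 502.4 and 412.8 CPM after vehicle and 358.8, 328.4 and 323.9 after SCH (log2 fold change -0.47 ± 0.060, SE, with an adjusted p of 5.09e-07 in edgeR). The log2 UBE2C/UBE2S ratio was -1.06, -1.22 and -0.91 after vehicle and -1.48, -1.31 and -1.29 after SCH. The difference was -0.30, without overlap but with the nearest samples of the groups close together. UBE2D1, another E2 enzyme, was raised by 0.77. BUB1B, a subunit of the checkpoint complex that binds CDC20, and TRIP13, which helps take that complex apart, were each lowered at -0.93, and MAD2L1 at -0.28. BUB1B shares 10.2% of its exonic bases with the readthrough gene BUB1B-PAK6.

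ESPL1, separase, the protease that securin holds inactive, had 131.9, 126.4 and 121.6 CPM after vehicle and 77.74, 69.62 and 70.40 after SCH, a log2 fold change of -0.80 ± 0.057 (SE, with an adjusted p of 3.30e-11 in edgeR). It fell further than PTTG1, and the log2 PTTG1/ESPL1 ratio was 0.30, 0.37 and 0.40 after vehicle and 0.66, 0.87 and 0.93 after SCH. Of the 16 separase and cohesin genes, 4 were lowered and 5 raised, with a median of 0.02 (0.12 when scaled by library size only), and the 56.2% that changed and 25% that were lowered lie near the 58.7% and 29.4% of all tested genes. STAG1, a cohesin subunit, and SGO2, a protector of centromeric cohesin, were lowered at -0.55 and -0.52, and 21.2% of the exonic bases of STAG1 are shared with PCCB on the opposite strand.

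Of 24 other APC/C substrates, 18 were lowered and RRM2 alone was raised, with a median of -0.46. This is 79.2% changed and 75% lowered, against 58.7% and 29.4% of all tested genes. The kinesin KIF20A (log2 fold change -1.56), CDCA3 (-1.27), a mitotic entry factor, and BIRC5 (-0.99), survivin, fell furthest among the well-covered genes. CDC6, a replication licensing factor that is also an APC/C substrate, had a log2 fold change of 0.06 (adjusted p = 0.345 from edgeR's test), and with library size only it passed as raised (0.16, adjusted p = 0.00701). NUSAP1 and PRC1 did not pass, and 62.2% and 58.4% of their exonic bases are shared with other genes.

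Of 23 transcriptional regulators of G2/M genes, 10 were lowered and 4 raised, with a median of -0.09 (0.01 when scaled by library size only), and 8 in place of 14 were called without SCH replicate 2. The share that changed, 60.9%, lies near the 58.7% of all tested genes, and 43.5% were lowered, against 29.4%. FOXM1, an activator of CCNB1 and CDC25B, was lowered at -0.32 ± 0.048 (SE, with an adjusted p of 5.00e-06 in edgeR). MYBL2 had a log2 fold change of 0.09 (adjusted p = 0.205 from the same test), passing as raised with library size only (0.20, adjusted p = 0.00769). For MYBL2 the value was 0.03 without vehicle replicate 3. E2F5 (-1.0, and -0.55 by limma on log2(FPKM + 1)), RBBP4 (-0.76) and E2F4 (-0.49), members or partners of repressor complexes on cell cycle promoters, were lowered. The 4 raised genes of this list were LIN37 (1.09, with 18.3 counts per sample on average), LIN54 (0.46), TFDP2 (0.17) and RB1 (0.15). LIN37 shares 54.0% of its exonic bases with other genes. E2F5, RBBP4 and FOXM1 share 18.6%, 18.0% and 15.9% of their exonic bases with genes on the opposite strand.

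**Figure D5:**
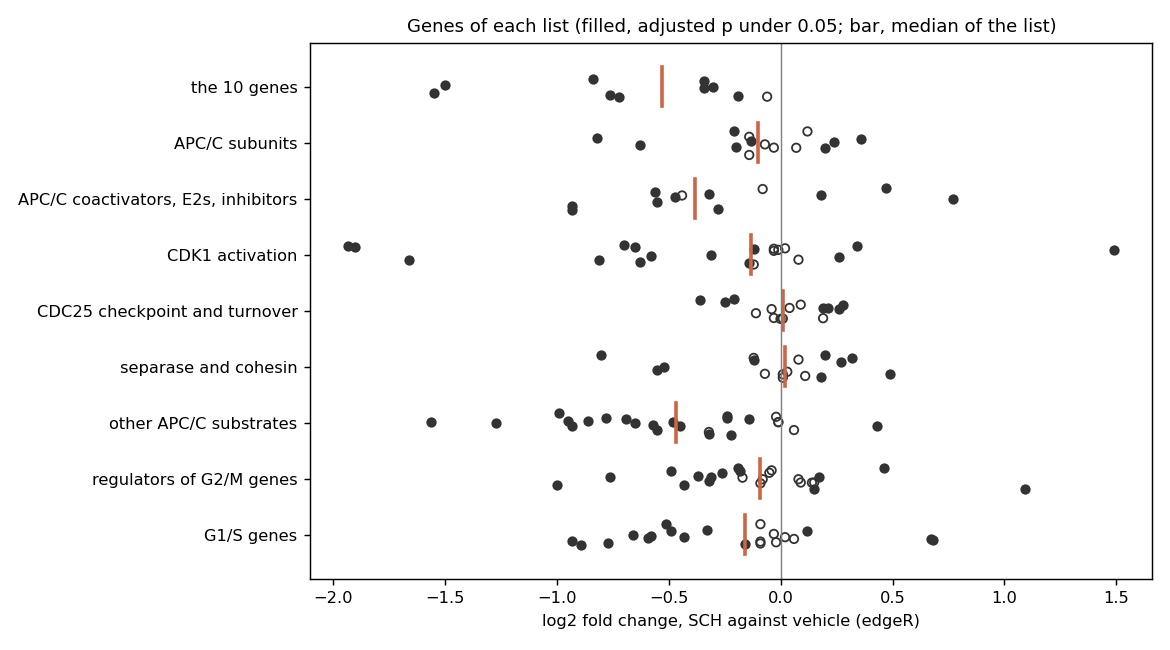
Log2 fold change of SCH against vehicle (horizontal axis) of every tested gene of the 10-gene set and of 8 related lists; filled points passed edgeR's test, and the vertical bar is the median of the list. The medians lie at -0.53 for the 10 genes and -0.46 for other APC/C substrates, and at -0.10 for the APC/C subunits, which moves to 0.00 when scaled by library size only.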

How the data were processed

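RNA was sequenced from 3 vehicle and 3 SCH samples of MDA-MB-231 cells, as poly-T purified mRNA (Illumina HiSeq). Raw gene counts without normalization were deposited by the authors, and also FPKM values per sample, which within a sample are the count divided by gene length and a sample scale. The submitters' processing notes name HISAT2 2.0.5, featureCounts 1.5.0-p3, DESeq2 1.20.0 and GRCh38. The strand setting and filters are not given in the sources used here. All 58735 identifiers are in GENCODE 29.

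Counts were tested in edgeR 4.0.16 (R 4.3.3; TMM, filterByExpr, quasi-likelihood test without covariates), with Benjamini-Hochberg adjustment over all 14736 tested genes calling genes under 0.05. The standard error was taken as the size of the log2 fold change over the square root of F. The common biological coefficient of variation was 5.17%. Totals ran from 16836369 to 20291379 counts, and intervals cover the spread between samples as fitted. Levels were compared between genes by FPKM, whose length was that of all annotated exonic bases of a gene. Ratios were tested by exact two-sided permutation. Counts of samples of a group differed by 2.12 to 5.75 times sampling noise, so none were copies. The edgeR fit was tested on simulated counts.

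The 10 genes, the lists and the named genes were chosen with earlier results of these data known. Named genes are the 10, a set of partners named whatever their values, up to 3 per list with the largest change among called genes that averaged at least 100 counts and did not overlap, and the 5 genes closest in pattern. Genes named beyond that rule (CDK2 in a ratio, RRM2, NUSAP1, PRC1, LIN37, LIN54, TFDP2, RB1, CCNE1, CCNE2, MCM2, MCM3, MCM4, MCM7, marker genes and copies) were chosen after their values were seen or serve as checks, and as single genes they have no alternatives of their own. Alternatives were RLE, upper quartile and library size scaling, no filter, a minimum of 10 counts per sample, DESeq2 1.42.0, limma 3.58.1 on log2(FPKM + 1) and log2(FPKM + 0.1), a replicate block, each replicate left out, and thresholds of 0.01 or an absolute log2 fold change of 1. Figures were made with matplotlib 3.10.9.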

Additional observations from a re-analysis of the deposited data

How the results depend on the processing

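There were 15 alternative fits, and 44 of 54 named genes kept their direction and side of the threshold in each fit that tested them, which for CCNB3 were 14, since the minimum of 10 counts per sample left it out. With an absolute log2 fold change of at least 1, 1292 of the tested genes and 2 of the 10 genes remained called. Scaling by library size only moved the median of all tested genes to 0.099 and called 5519 genes raised and 3295 lowered (62.6% raised, against 49.9%). It lowered 7 of the 10 genes, without CDC25C (-0.20, adjusted p = 0.0901 from edgeR) and FBXO5 (-0.08, 0.308), turned CDC25A to 0.04, PKMYT1 to 0.07 and FZR1 to 0.03, and called 11 of the CDC25 checkpoint and turnover genes in place of 7. DESeq2 called 7532 of the 18628 genes to which it gave an adjusted p (40.4%) and 7 of the 10, and limma on log2(FPKM + 1) and log2(FPKM + 0.1) 8 of the 10, with FBXO5 at adjusted p = 0.0526 and 0.0506. The scale log2(FPKM + 1) shrank scarce genes, with CCNA1 at 0.83, CCNB3 at -0.31 and E2F5 at -0.55.

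Leaving out a replicate called 8 or 9 of the 10 genes, 7809 to 8489 of all genes and 8 to 15 of the transcriptional regulators. PKMYT1 took values of 0.00, 0.01 and 0.02 without SCH replicate 2, SCH replicate 3 and vehicle replicate 1, and lay between -0.08 and 0.02 over all of these fits. The CDC25C/CDC25B ratio lay between -0.01 and 0.13. The median of the APC/C subunits was -0.02 without SCH replicate 1, that of separase and cohesin genes 0.08 without vehicle replicate 3, and that of G1/S genes -0.08 without vehicle replicate 2. Deviations of same-numbered samples correlated at 0.14, -0.06 and 0.12, and those of samples with unlike numbers at -0.24 to 0.17. No pairing by number was seen, but so few samples cannot exclude it. With the replicate number as a block, 8705 genes and 9 of the 10 were called. The cause of these changes was not tested. Of the 10 genes, CDC25C had the fewest counts and the largest standard error (0.099).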

Other observations

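Of 21 G1/S genes, 11 were lowered and 3 raised by edgeR's quasi-likelihood test, so that 66.7% changed and 52.4% were lowered, against 58.7% and 29.4% of all tested genes. Their median log2 fold change was -0.16, and -0.05 when scaled by library size only. GINS2 (-0.93), MCM5 (-0.89) and MCM6 (-0.77), parts of the replicative helicase, were lowered, and so were the other MCM2 to MCM7 genes, at -0.33 to -0.66. MCM2 shares 23.6% of its exonic bases with AC023593.1 and TPRA1 on the opposite strand. The E-type cyclins CCNE1 and CCNE2, which act with CDK2 at the G1/S transition, were raised by 0.68 and 0.67. Of the exonic bases of CCNE2, 37.1% are shared with INTS8 and AC087752.4 on the opposite strand, and the strand setting of the counting is not given in the sources used here.

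The genes closest in pattern to the median of the 10 over the 6 samples were VIM, MAT2A, NACA, NLN and ATF4, among 10704 genes averaging at least 100 counts. Likeness was the root mean square difference of centred log2 CPM, which was 0.0210 for VIM and 0.0259 for ATF4, and their log2 fold changes lay between -0.56 and -0.51. With 2 groups this measure mostly reads the size of the fall.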
